A study of Mus musculus with 20 samples.

Results

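The promoters of the mouse Zfp genes carried 389 regions of trimethylated histone H3 lysine 4 (H3K4me3), which belonged to 344 genes. A region was a member when the study's lists of promoters by H3K4me3 level gave it a gene whose name is Zfp followed by a digit. These were 389 of 15584 promoter regions in the lists and of 22343 H3K4me3 regions in all. In addition, 492 of 117165 regions of monomethylated lysine 4 (H3K4me1) shared at least 1 bp with a member. Of the 344 genes, 307 had 1 region and 37 had more, up to 6 at Zfp219. The name is not a family in the strict sense, and 3 of the names end in os or ps, which mark opposite-strand transcripts and pseudogenes.

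The data are ChIP-seq of H3K4me3 and H3K4me1 in immortalized mouse embryo fibroblasts of the genotype Ash2l fl/fl/Cre-ER. The cells were kept for 5 days with 5 nM 4-hydroxytamoxifen (+HOT), which activates the Cre recombinase and deletes exon 4 of Ash2l, or with the vehicle ethanol (-HOT). All cells, +HOT and -HOT alike, carried both floxed alleles, Cre-ER and a short hairpin RNA against p19Arf, by which they had been immortalized. KO1 and KO2 are the lines iMEF1 and iMEF2, and each line gave 1 library per mark and condition, so that n = 2 lines throughout and an effect of HOT or Cre without the floxed alleles cannot be told apart from Ash2l loss in these 8 libraries.

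KMT2 methyltransferases need Ash2l as a core component to methylate H3K4, and H3K4me3 marks the start sites of active genes. Most Zfp genes encode zinc finger proteins of the C2H2 type, which read DNA with tandem fingers. Many also carry a KRAB box, through which the protein binds the corepressor Trim28 and silences endogenous retroviruses and imprinted loci, and these genes lie in clusters that grew by tandem duplication. A few Zfp genes encode fingers of the CCCH type, which bind AU-rich elements in mRNA.

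Motif content before the start sites differed between Zfp and other promoters. The letters ACTACANTTCCCA, searched on both strands of the 250 bases before the transcriptional start site (TSS), match the longer form of the site bound by human ZNF143, the counterpart of mouse Zfp143. They were found in 40 of 286 Zfp promoters (14%), against 157 of 11883 other promoters (1.32%) and 1.62% of all. Thus 20.3% of the 197 promoters with this motif belonged to Zfp genes, which made up 2.35% of the promoters searched. The motif lay on the strand opposite to the gene in 33 of the 40 Zfp promoters and in 41 of 157 others, with a median of 42 and 80 bases between motif and TSS. A match is a description of the letters and not evidence of binding. The sequences below are from the 10 Zfp promoters that had the highest H3K4me3 in -HOT cells among those where the motif overlapped no annotated exon, with the motif in capitals. They are from the mm9 reference, read 5′ to 3′ on the strand of the motif.
Zfp84, chr7:30553537-30553569: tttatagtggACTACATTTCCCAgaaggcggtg
Zfp790, chr7:30600976-30601008: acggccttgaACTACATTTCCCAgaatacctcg
Zfp748, chr13:67654093-67654125: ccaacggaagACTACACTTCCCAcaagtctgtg
Zfp933, chr4:147222537-147222569: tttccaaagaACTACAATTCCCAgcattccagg
Zfp1, chr8:114167306-114167338: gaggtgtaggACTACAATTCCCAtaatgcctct
Zfp180, chr7:24866882-24866914: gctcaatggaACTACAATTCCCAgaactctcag
Zfp112, chr7:24897273-24897305: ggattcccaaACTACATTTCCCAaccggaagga
Zfp28, chr7:6335873-6335905: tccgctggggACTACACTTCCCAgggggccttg
Zfp566, chr7:30875583-30875615: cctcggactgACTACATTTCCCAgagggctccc
Zfp712, chr13:67162141-67162173: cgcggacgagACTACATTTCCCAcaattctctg
The motif is on the plus strand at Zfp748, Zfp28 and Zfp712 and on the minus strand at the others. At Zfp84 11 bases lie between it and the TSS, and at Zfp28 184.

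Among Zfp promoters the motif was found most often in clusters. It was present in 31 of 141 promoters of genes with a KRAB pattern in the coding sequence, called KRAB promoters here (22.0%). It was present in 9 of 124 promoters of C2H2 genes without a KRAB pattern (7.26%) and in none of the 4 CCCH promoters. Promoters in a cluster, meaning that at least 2 other Zfp genes lay within 200000 bp, had it in 35 of 127 cases (27.6%), and promoters outside a cluster in 5 of 159 (3.14%). Its first letters, ACTACA, which every long match also holds, were found in 24.1% of Zfp and 8.37% of other promoters. In contrast, the GC box GGGCGG was found in 42.0% of Zfp and 64.0% of other promoters (63.5% of all), and in 31.9% of KRAB promoters. The CCAAT box CCAAT was found in 38.5% of Zfp and 35% of other promoters, and the ETS motif CCGGAAG in 18.5% and 12.8%. The remaining motifs, NRF1 (GCGCATG), E-box (CACGTG), CRE core (TGACG), YY1 (AAGATGG) and TATA box (TATAAA), were within 3 percentage points of the other promoters, and none of these contains another of them.

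**Figure D1:**
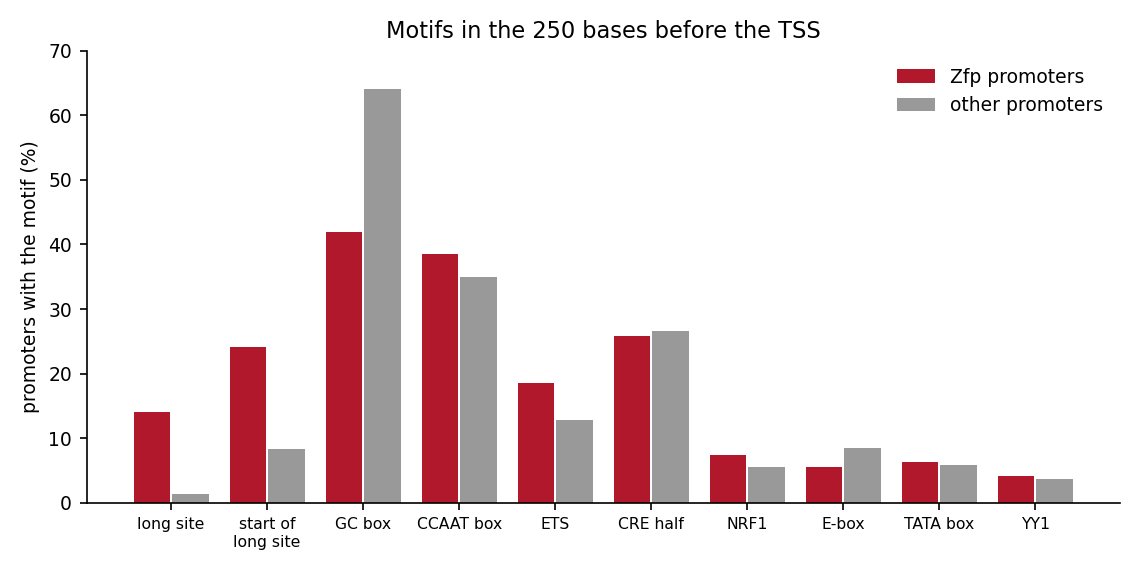
Share of promoters with each motif in the 250 bases before the TSS, on either strand, for 286 Zfp promoters (red) and 11883 other promoters (grey). The long site and its first letters stand higher in Zfp promoters (14% and 24.1%) than in the others (1.32% and 8.37%), and the GC box stands lower (42.0% against 64.0%).

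Zfp promoters were also poorer in CpG. Within 500 bases on either side of the TSS the median GC content was 55.0% in Zfp promoters and 60.0% in the others, and the median CpG count was 49.5 and 64.0 per 1000 bases. The ratio of observed to expected CpG had a median of 0.657 in Zfp promoters and 0.733 in the others.

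Zfp regions carried about as much H3K4me3 as other promoters in vehicle-treated cells. A Zfp region held a median of 250 (KO1) and 1033 (KO2) scaled reads in -HOT cells, and another promoter region 255 and 986. The study's lists class a region by its counts in -HOT and +HOT cells together. They put 254 of 389 Zfp regions in the high class in KO1 (65.3%, against 56.4% of other promoter regions), 87 in the medium and 48 in the low class. In KO2 these were 154, 200 and 35, with 39.6% in the high class against 41.3% of the others. Zfp regions were 1699 bp wide in the median (1747 bp for the others), and their centre lay downstream of the TSS in 317 of 389 cases.

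A scaled read is a read divided by the factor that the authors applied to the library, and the factor was between 1 and 1.333. H3K4me3 libraries held 2441698 and 6978481 reads in regions in +HOT cells, against 6116382 and 17708078 in -HOT cells (KO1 and KO2), and H3K4me1 libraries held 6157647 to 9048056. KO2 was sequenced deeper, so values were compared within a line. As a check of the cell type, 10 of 10 fibroblast markers such as Col1a1 and Vim had an H3K4me3 promoter region, and 5 of 14 markers of other cell types had one, with at most 84.8 and 315 scaled reads in -HOT cells of KO1 and KO2.

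H3K4me3 was lower in +HOT cells at every Zfp region tested, in both lines. Of 359 regions with more than 20 scaled reads in +HOT or -HOT cells of both lines, 312 fell (86.9%) and 0 rose, by limma with the line as a block and an adjusted p (Benjamini-Hochberg over all regions) under 0.05. At an unadjusted p under 0.05 these were 317 and 0, whereas edgeR called 346 and 0 and DESeq2 353 and 0. Of all 16129 regions tested, 86.5% fell and 0.0744% rose, and of the 13168 other promoter regions 85.2% fell. By edgeR 94.5% of all regions fell and 0.0186% rose, and by DESeq2 95.3% and 0%. The share of Zfp regions that fell was thus near the background. The remaining 47 Zfp regions did not pass, and 30 of the 389 were not tested. Because limma gave all regions 1 standard error, its call was a limit at a mean log2 ratio of about -0.80, and of the 47 regions edgeR called 42 lower and DESeq2 44. Not passed refers to limma from here on.

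The median Zfp region had a log2 ratio of +HOT over -HOT of -1.0 in KO1 and -1.39 in KO2. This left 50.0% and 38.3% of the -HOT signal. Over all regions tested the median log2 ratio was -1.06 and -1.63, and over other promoters -1.0 and -1.47. The middle 50% of Zfp regions lay between -1.35 and -0.77 in KO1 and between -1.76 and -1.07 in KO2, and for other promoters between -1.43 and -0.72 and between -2.20 and -1.06. The ratio was lower in KO2 than in KO1 at 345 of 359 Zfp regions (96.1%), and this was so for 96.1% of other promoters as well. Because the mark fell nearly everywhere, the change of a region was also read against the median of all regions. With each line centred to a median of 0, 34 Zfp regions fell and 35 rose relative to it (limma, adjusted p under 0.05), against 23.2% and 9.42% of all regions, and the median Zfp region stood at 0.14. In such bulk libraries, fewer cells with the mark and less of it per cell cannot be told apart.

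**Figure D2:**
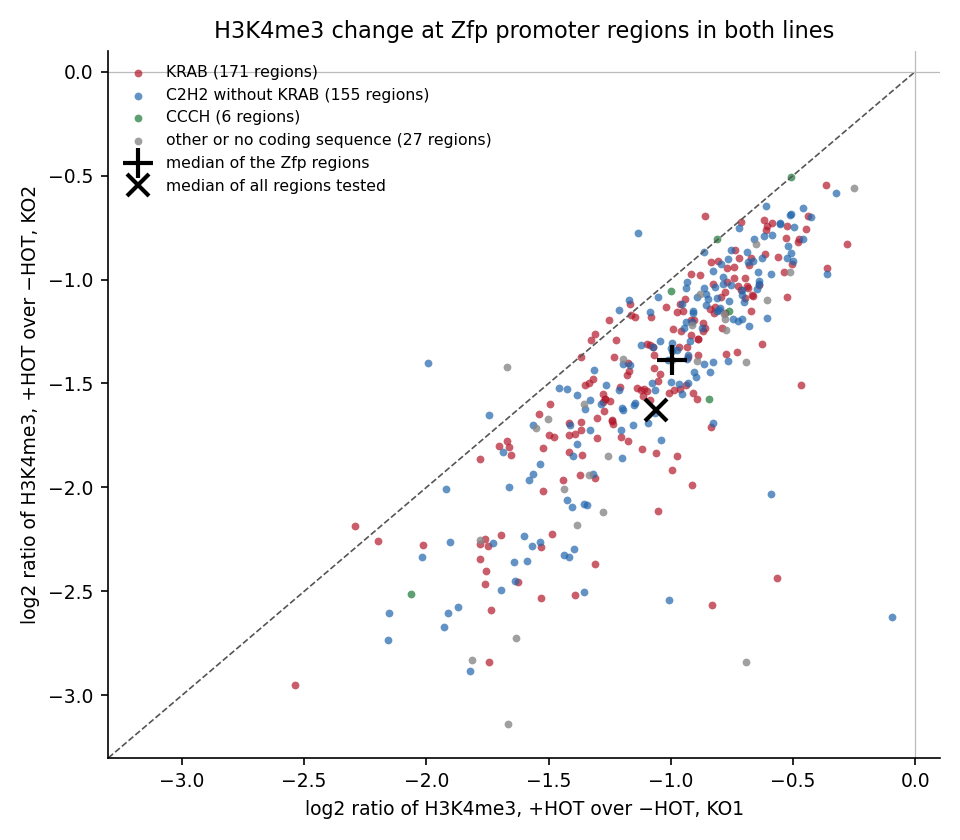
Log2 ratio of H3K4me3, +HOT over -HOT, in KO1 (horizontal) and KO2 (vertical) for the 359 Zfp regions tested, coloured by the class of the protein; the dashed line marks equal ratios. All points lie below 0 on both axes and most lie below the dashed line, and the plus (median of Zfp regions) and the cross (median of all regions tested) are at -1.0 and -1.39 and at -1.06 and -1.63.

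The size of the loss went with the study's class of the level, as it did at other promoters. The study formed these classes from the counts in -HOT and +HOT cells together. A larger loss thus lowers the class of a region, and the order below is partly built in. Regions of the high class in both lines had median log2 ratios of -0.80 and -1.06 in KO1 and KO2 (113 of 154 fell), and other promoters of these classes -0.78 and -1.07. Regions that were high in KO1 and medium in KO2 had -1.08 and -1.47 (95 of 100 fell), against -1.13 and -1.63 at other promoters. Regions of the medium class in both lines had -1.39 and -1.86 (85 of 86 fell), and here other promoters stood at -1.54 and -2.38. The few regions that were low in KO1 had -1.63 and -2.40 where KO2 was medium (12 of 12 fell) and -1.55 and -2.06 where it was low (6 of 6 fell). Of the 48 regions that were low in KO1, 18 were tested, with KO1 medians of 12.5 (+HOT) and 38.3 (-HOT) scaled reads. Those at or below 20 in +HOT cells entered the test only through -HOT cells, so their counts are partly built in. The regions not tested had median log2 ratios of -1.05 and -2.03 in KO1 and KO2. The 1 region that was medium in KO1 and low in KO2 had -1.66 and -3.14. In KO2, Zfp regions of the medium class in both lines kept a median of 183 scaled reads in +HOT cells, against 672 in -HOT cells, and other promoters 98.0 against 531. This difference between Zfp and other promoters was not tested.

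The largest losses among the 322 regions with at least 100 scaled reads in both lines were at Zfp296, Zfp811, Zfp597, Zfp667, Zfp3 and Zfp57. The standard error of the mean log2 ratio over the 2 lines was 0.391 in limma.
Zfp296, a C2H2 factor known from pluripotent cells, had a region that spanned its TSS, with the centre in its first intron (chr7:20162355-20163747). It held 27 and 50 scaled reads in +HOT cells, against 124 and 339 in -HOT cells, in KO1 and KO2. Its mean log2 ratio was -2.45 (adjusted p 7.4e-09, limma).
Zfp811, a KRAB gene on chromosome 17 (chr17:32945914-32947261), had 30 and 73 in +HOT cells, against 103 and 529 in -HOT cells (mean log2 ratio -2.29). Zfp597 (chr16:3871667-3873123) spanned its TSS and had 45 and 134 in +HOT cells, against 172 and 821 in -HOT cells (-2.26). Zfp667, a KRAB gene, lost signal at a region centred at -2984 bp from its TSS (chr7:6234517-6235879), with 30 and 160 in +HOT cells, against 141 and 768 in -HOT cells (-2.23). In each of these the 2 lines moved together, and 13.8% to 29.2% of the -HOT signal was left.
Zfp3 (chr11:70577172-70578753) had 71 and 164 in +HOT cells, against 263 and 983 in -HOT cells (-2.22). Zfp57, which maintains methylation of imprinted loci, had 43 and 162 in +HOT cells, against 177 and 822 in -HOT cells (chr17:37139260-37140672, -2.18, adjusted p 1.9e-07, limma). Of these 6, 5 belonged to the medium class in both lines, and Zfp3 was high in KO1.

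The smallest losses were at Zfp638, Zfp445, Zfp971, Zfp36l2, Zfp942 and Zfp106, and none of them passed in limma. With DESeq2, Zfp445 (adjusted p 0.038), Zfp36l2 (0.0025), Zfp942 (0.0095) and Zfp106 (0.014) passed, and with edgeR the last 3 of these. Zfp638, a DNA- and RNA-binding protein, had 364 and 918 scaled reads in +HOT cells, against 434 and 1354 in -HOT cells (chr6:83864249-83866007, mean log2 ratio -0.41, adjusted p 0.30, limma). Zfp445, a KRAB protein that acts at imprinted loci like Zfp57, had 248 and 855 in +HOT cells, against 320 and 1247 in -HOT cells (chr9:122773669-122775509, -0.45). The tested regions of these 2 genes of related function thus stood near opposite ends of the range. They also differed in class, medium in both lines at Zfp57 and high in both at Zfp445. A further Zfp57 region, centred at -415 bp from the TSS, was not tested. It held 8 and 9 scaled reads in +HOT cells, against 6.75 and 44.6 in -HOT cells.
Zfp971 (chr2:177757709-177758923) had 122 and 508 in +HOT cells, against 153 and 762 in -HOT cells (-0.45). The region over the last exon of Zfp36l2, a CCCH protein that promotes mRNA decay, had 536 and 1735 in +HOT cells, against 764 and 2464 in -HOT cells (chr17:84583981-84586732, -0.51). Zfp942 (chr17:22098179-22100738) had 304 and 986 in +HOT cells, against 369 and 1754 in -HOT cells (-0.55), and Zfp106 (chr2:120388322-120389892) had 252 and 721, against 347 and 1139 (-0.56). All 6 stood above the median of all regions after centring, by 0.79 to 0.94 on the log2 scale.

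**Figure D3:**
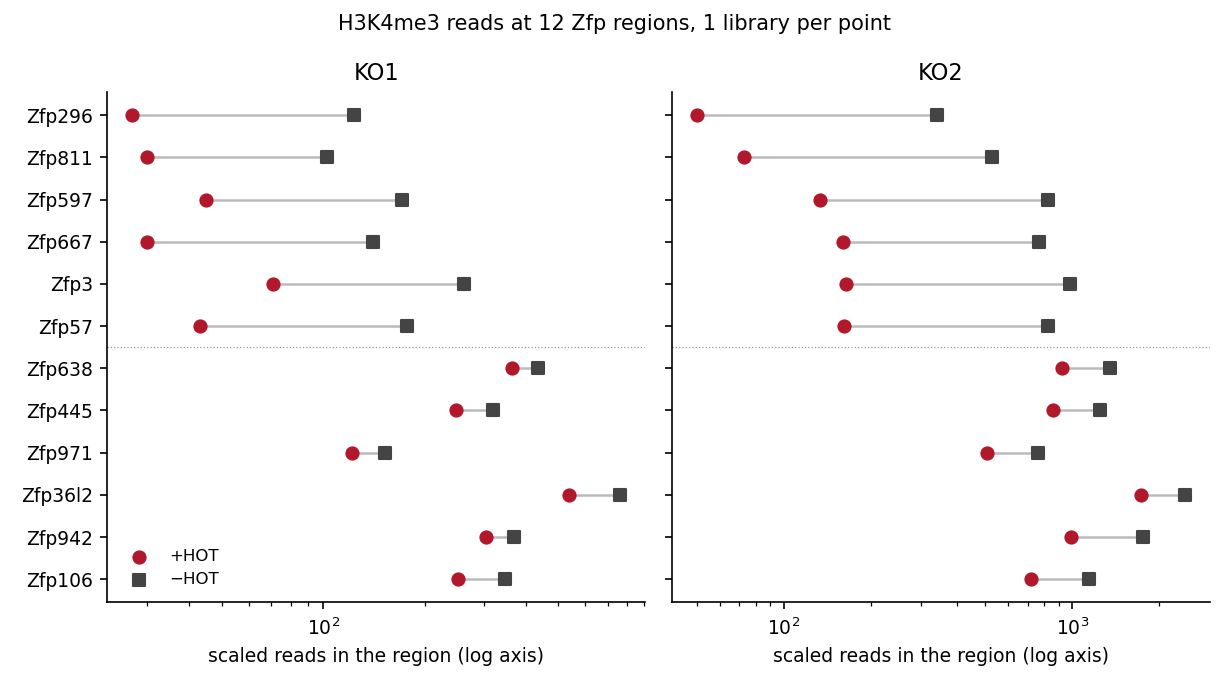
Scaled H3K4me3 reads in +HOT cells (red circles) and -HOT cells (dark squares) of KO1 and KO2 at the 6 Zfp regions with the largest losses (upper rows) and the 6 with the smallest (lower rows), on log axes, 1 library per point. The +HOT point lies left of the -HOT point in every row. The widest gap is at Zfp811 (73 against 529 in KO2) and the narrowest at Zfp638 (364 against 434 in KO1).

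The sequences before the start sites of such genes show how their CpG content varied. The 150 bases upstream of the TSS are given for the 3 largest and the 3 smallest losses among regions of at least 100 scaled reads that contain this stretch and where it overlaps no annotated exon, with each CG in capitals (mm9, strand of the gene).
Zfp296, chr7:20162486-20162635, plus strand: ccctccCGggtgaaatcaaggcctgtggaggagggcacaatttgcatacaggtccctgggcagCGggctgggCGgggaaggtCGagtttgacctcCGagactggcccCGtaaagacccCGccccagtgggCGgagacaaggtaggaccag
Zfp13, chr17:23736455-23736604, minus strand: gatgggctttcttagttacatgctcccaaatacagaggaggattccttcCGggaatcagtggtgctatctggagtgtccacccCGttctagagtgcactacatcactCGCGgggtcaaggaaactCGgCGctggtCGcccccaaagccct
Zfp354b, chr11:50745136-50745285, minus strand: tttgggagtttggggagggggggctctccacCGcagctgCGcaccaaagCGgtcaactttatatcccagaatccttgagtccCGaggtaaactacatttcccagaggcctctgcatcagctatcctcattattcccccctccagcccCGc
Zfp971, chr2:177757839-177757988, plus strand: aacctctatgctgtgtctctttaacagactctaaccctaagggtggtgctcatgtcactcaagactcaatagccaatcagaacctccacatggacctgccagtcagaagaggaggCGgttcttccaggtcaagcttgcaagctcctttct
Zfp106, chr2:120389580-120389729, minus strand: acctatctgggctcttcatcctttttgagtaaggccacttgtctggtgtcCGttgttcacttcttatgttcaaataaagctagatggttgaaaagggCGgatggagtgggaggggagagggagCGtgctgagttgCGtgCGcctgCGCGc
Zfp335, chr2:164737258-164737407, minus strand: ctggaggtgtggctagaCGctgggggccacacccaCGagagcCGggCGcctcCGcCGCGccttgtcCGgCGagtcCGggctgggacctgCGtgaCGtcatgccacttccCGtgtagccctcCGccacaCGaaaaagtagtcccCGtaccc
These stretches hold 8, 7 and 5 CG at the largest losses and 1, 7 and 16 at the smallest, so that the count alone did not order them. The stretch of Zfp354b also holds the long motif.

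Across all Zfp regions with a matched TSS, promoters poor in CpG lost more. In the 73 regions with the lowest ratio of observed to expected CpG the median log2 ratio was -1.18 and -1.59 (69 of 73 fell). In the 73 with the highest ratio it was -0.89 and -1.27 (57 of 73 fell). The level of the mark moved with it, since the lowest 73 held a median of 202 and 870 scaled reads in -HOT cells and the highest 73 held 398 and 1307, and its part in the difference was not tested. The rank correlation between this ratio and the log2 ratio was 0.21 and 0.17 over 290 Zfp regions and 0.15 and 0.21 over 11809 other regions, in KO1 and KO2. These are descriptions across regions that share their libraries. Regions whose promoter held the long motif had -1.06 and -1.50 (39 of 40 fell), and those without it -0.97 and -1.38 (215 of 250 fell), beside 86.5% of all regions. Those with the motif also held less of the mark in -HOT cells, with medians of 223 and 939 scaled reads against 294 and 1125. Their median ratio of observed to expected CpG was 0.487 against 0.688. The part of either in the difference was not tested.

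The promoters of genes with and without the pattern of a KRAB box had close medians. The pattern of a KRAB box was found in the coding sequence at 171 regions tested, of which 151 fell, with median log2 ratios of -1.05 and -1.37. C2H2 genes without the pattern had 155 regions, of which 132 fell, with -0.96 and -1.36. The medians differed by -0.09 in KO1 and -0.01 in KO2, a difference that was not tested. In the medium class of both lines the sign turned, and KRAB regions (44) stood 0.01 and 0.26 above those without (33). Zfp57 carries a KRAB box by common annotation that the pattern did not find. The class without the pattern can thus hold other genes with a KRAB box, and their number was not examined. The 6 CCCH regions had -0.83 and -1.10 (5 fell).

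Regions in a cluster lost somewhat more than regions outside one, with medians of -1.05 and -1.47 (146 of 162 fell) and of -0.93 and -1.33 (166 of 197 fell). KRAB regions in a cluster had -1.07 and -1.48, and those outside -0.94 and -1.30. Clustered regions held less of the mark, with 243 and 1029 scaled reads in -HOT cells against 292 and 1135 outside, and the part of this in the difference was not tested.

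Single clusters differed. On chromosome 13 (chr13:67160935-67915850), all 21 regions grouped into the cluster, of 21 genes, fell, with medians of -1.27 and -1.57. Of these, 14 of the 19 with a matched TSS held the long motif. Zfp729a, whose region starts at 67737701 in the same stretch, was not grouped with them and did not pass (-0.67, adjusted p 0.095, limma). The lowest of the 21 was Zfp459, with 16 and 54 scaled reads in +HOT cells against 97.5 and 424 in -HOT cells (mean log2 ratio -2.74, the lowest of all 359). The highest of the 21 was Zfp87, with 198 and 617 against 332 and 1231 (-0.87). On chromosome 7, all 14 regions tested at chr7:30551492-30955965 fell (-1.05 and -1.34), as did all 11 at chr7:24866368-25293526 (-1.18 and -1.50).
Losses were smaller in the cluster at chr17:32923669-33532278, where 6 of 10 regions fell and the medians were -0.80 and -0.98, although Zfp811 lies in it. Another cluster of chromosome 17, at chr17:21520111-22100738, had -1.25 and -1.58, with 8 of 9 regions called. In the cluster of chromosome 6, 5 of 7 regions fell (-0.67 and -1.14). These counts are calls of limma. The regions that did not pass in these clusters were Zfp871, Zfp799, Zfp870, Zfp81 and Zfp942 on chromosome 17 and Zfp212 and Zfp398 on chromosome 6. All of them were called lower by edgeR and by DESeq2. Members of a cluster are neighbours of related sequence, and reads that map to several of them could have been split or lost.

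**Figure D4:**
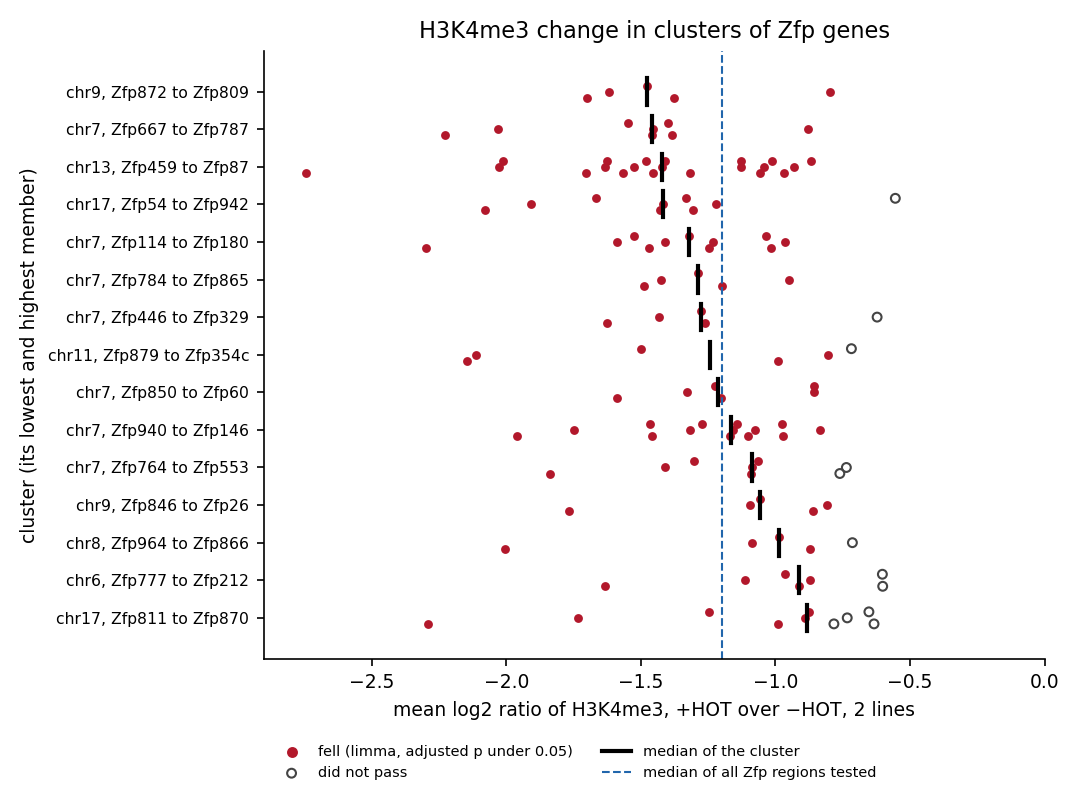
Mean log2 ratio of H3K4me3, +HOT over -HOT, over both lines for each region in the 15 clusters with at least 5 regions tested, ordered by median (black bars) and labelled by the chromosome and the members with the lowest and highest ratio. Filled points fell and open points did not pass in limma. All 21 regions grouped into the chromosome 13 cluster are filled, against 6 of 10 in the lowest row and 86.9% of all Zfp regions tested. Zfp729a of the same stretch was not grouped and is not among the 21. The dashed line is the median of all Zfp regions tested at -1.20.

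Several regions of 1 gene could differ widely. In 21 genes with at least 2 regions tested, the range of mean log2 ratios within a gene had a median of 0.61 and reached 1.29 at Zfp521, a regulator of adipocyte and bone differentiation. At Zfp521 the region upstream of the TSS had 26 and 106 scaled reads in +HOT cells, against 86.3 and 602 in -HOT cells (-2.09), and the region 2174 bp downstream had 506 and 1458, against 791 and 2846 (-0.80). Zfp703 showed the same order, with -2.02 upstream, where 34 and 110 scaled reads remained against 119 and 528, and -0.74 downstream, where 528 and 1590 stood against 830 and 2830. In both genes the stronger region lost less.

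Of Zfp genes with known roles, the regulators of transcription and chromatin had 35 regions tested, of which 31 fell (88.6%, near the 86.5% of all regions), with median log2 ratios of -1.02 and -1.60. Zfp57 was the lowest in this list, Zfp105 the median (49 and 235 scaled reads in +HOT cells, against 104 and 681 in -HOT cells, -1.30) and Zfp335 the highest (469 and 1480, against 630 and 2406, -0.56, not passed). Zfp143 had 2 regions that fell, with 149 and 380 in +HOT cells against 268 and 1038 in -HOT cells upstream (-1.14) and 86 and 429 against 195 and 919 downstream (-1.13).
Zfp809, a KRAB protein that silences endogenous retroviruses, was just inside the threshold, with 208 and 685 in +HOT cells against 347 and 1243 in -HOT cells (-0.80, adjusted p 0.048, limma). Zfp568, which represses a placental transcript of Igf2, had 262 and 995 against 532 and 2180 (-1.07). Zfp423, which commits cells to the adipocyte lineage, had 127 and 595 in +HOT cells against 311 and 1805 in -HOT cells at its main region (-1.44). Its upstream region held 21 scaled reads in +HOT cells against 22.5 in -HOT cells in KO1, and 25 against 159 in KO2, so that the 2 lines differed there.

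Genes with roles in RNA, translation, mitosis or protein turnover had 8 regions, of which 3 fell, with medians of -0.54 and -0.92. This share of 37.5%, beside 86.5% of all regions, depended on the tool, since edgeR and DESeq2 each called 7 of the 8, beside 94.5% and 95.3% of all regions. Zfp385a, an mRNA-binding protein, was the lowest, with 25 and 94 scaled reads in +HOT cells against 64.5 and 363 in -HOT cells (-1.64). Zfp326, a splicing factor, had 260 and 695 against 490 and 1618 (-1.06), and Zfp346, which binds double-stranded RNA, had 196 and 689 against 341 and 1311 (-0.86).
Those that did not pass included Zfp207, which acts on the mitotic spindle, at 491 and 1395 in +HOT cells against 694 and 2627 in -HOT cells (-0.71). Zfp598, the ubiquitin ligase that senses collided ribosomes, had 320 and 791 against 412 and 1553 (-0.67), and Zfp622, a ribosome maturation factor, had 542 and 1638 against 815 and 2827 (-0.69). The median level of this list in -HOT cells was 423 and 1454 scaled reads, above that of Zfp regions as a whole, and its part in the smaller change was not tested.

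The CCCH genes that bind AU-rich mRNA had 5 regions tested, of which 4 fell (-0.84 and -1.15). Zfp36, the gene of tristetraprolin, had 352 and 755 scaled reads in +HOT cells against 632 and 2249 in -HOT cells at its strongest region (-1.21). Zfp36l1 had 741 and 2099 against 1257 and 4659 (-0.96). Zfp36l1, Zfp503 and Zfp516 held the most H3K4me3 of all Zfp regions in -HOT cells, and Zfp503, Zfp516 and Zfp608 were the widest, at 9646, 8954 and 7799 bp.
Zfp503, a developmental repressor, had 1071 and 2141 scaled reads in +HOT cells against 1631 and 4587 in -HOT cells (-0.85). Zfp516, a factor of brown fat, had 326 and 1385 against 1052 and 4919 (-1.76). Zfp608 had 612 and 1395 against 1087 and 4498 (-1.26). All 3 broad regions fell, with 31.0% to 65.7% of the signal left in KO1 and 28.2% to 46.7% in KO2.

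Values for the partners of KRAB proteins are given for comparison. Of 19 regions tested at genes of the corepressor and of heterochromatin, 15 fell (78.9%, against 86.5% of all regions), with medians of -0.85 and -1.25. Trim28 had 324 and 901 scaled reads in +HOT cells against 623 and 2252 in -HOT cells (-1.13). Setdb1, the H3K9 methyltransferase recruited by Trim28, had 74 and 303 against 105 and 498 and did not pass (-0.61). Dnmt3a was the lowest, with 11 and 24 against 30.8 and 305 at its upstream region (-2.51), Dnmt1 was the median (185 and 650 against 362 and 1544, -1.10), and Hdac2 was the highest (382 and 931 against 491 and 1674, -0.60, not passed).

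The shares called in other zinc finger families, 88.9% (Zbtb), 80% (Zscan and Zkscan) and 85.7% (Zc3h), lay around the 86.5% of all regions. Zbtb genes had 45 regions tested, of which 40 fell (-1.02 and -1.44), from Zbtb14 (5 and 24 scaled reads in +HOT cells, against 36.8 and 169 in -HOT cells, -2.71) over Zbtb21 (215 and 579, against 440 and 1568, -1.23) to Zbtb33 (197 and 610, against 228 and 994, -0.46, not passed). Zscan and Zkscan genes had 20, of which 16 fell (-1.03 and -1.40), from Zkscan2 (15 and 18, against 51.0 and 137, -2.28) over Zkscan17 (234 and 703, against 507 and 1849, -1.25) to Zkscan1 (286 and 854, against 395 and 1362, -0.57, not passed). Zc3h genes had 14, of which 12 fell (-0.84 and -1.17), from Zc3h8 (86 and 290, against 215 and 954, -1.51) over Zc3h12c (221 and 560, against 385 and 1356, -1.04) to Zc3h14 (282 and 510, against 370 and 925, -0.62, not passed).

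The study counted lost and gained regions by a log2 ratio past 0.58 in size and more than 20 reads, without naming the condition that the reads refer to. With the minimum applied to the higher condition, 326 of 389 Zfp regions lost H3K4me3 in both lines (83.8%) and 0 gained it. Of all 22343 regions, 63.4% lost and 0.0448% gained the mark in both lines, and 76.1% of other promoter regions lost it. With the minimum applied to both conditions, 305 Zfp regions lost the mark and 0 gained it, against 50.6% and 0% of all regions. The -HOT values of both lines exceeded both +HOT values at 54 of 359 regions (15.0%), against 32.6% of all. The +HOT library of KO2 held 6978481 reads in regions and the -HOT library of KO1 6116382, and the part of this in the overlap was not tested.

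H3K4me1 moved the other way. Of 492 H3K4me1 regions over Zfp promoters, 394 had enough reads to be tested, and 302 rose (76.6%) while 10 fell (limma, adjusted p under 0.05). Of all 78691 H3K4me1 regions tested, 14.8% rose and 2.57% fell, and of the 14385 over other promoters 65.8% rose and 2.95% fell. edgeR called 312 higher and 4 lower (18.8% and 1.52% of all regions), and DESeq2 200 higher and 0 lower (9.21% and 0.0267%), with 2 lower at an unadjusted p under 0.05. Zfp promoters had median log2 ratios of 1.24 (KO1) and 1.18 (KO2), other promoters 1.02 and 0.99 and all regions 0.30 and 0.08. H3K4me1 regions were found at 341 of 386 Zfp regions (88.3%, against 83.4% of other promoters) outside a stretch of chromosome 1 whose coordinates could not be used. The 45 without one were mostly weak, and 27 were of the low class in KO1.

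The 6 largest rises all lay inside the H3K4me3 region. Zfp827, a C2H2 protein whose human counterpart acts at telomeres, had 55 and 81.8 scaled H3K4me1 reads in +HOT cells, against 6 and 3 in -HOT cells, in KO1 and KO2 (chr8:81553452-81554525, mean log2 ratio 3.69 ± 0.29 SE, adjusted p 6.4e-07, limma). Zfp36l2 had 68 and 90.9 in +HOT cells, against 7 and 5 in -HOT cells (chr17:84584101-84585143, 3.52 ± 0.26). At Zfp36l2 the H3K4me3 region around it was among the 6 that changed least, with an H3K4me3 loss that did not pass in limma (adjusted p 0.20) and passed in edgeR (0.0496) and DESeq2 (0.0025).
Zfp710 had 57 and 82.7 in +HOT cells, against 6 and 7 in -HOT cells (chr7:87172062-87172828, 3.22). Zfp608 had 162 and 202, against 17 and 23 (chr18:55150032-55152231, 3.13). Zfp60, a KRAB gene, had 53 and 64.5, against 4 and 9 (chr7:28516590-28517257, 3.07), and Zfp36l1 had 82 and 125, against 15 and 9 (chr12:81212105-81213724, 3.02). In all 6 the +HOT values exceeded both -HOT values by several times, and the -HOT values were between 3 and 23 reads, so that the sizes rest on low counts.

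Among the 254 regions with at least 50 scaled reads in the higher condition and the same sign in both lines, 251 were higher and 3 lower. The median H3K4me1 region over Zfp promoters held 23 and 30 scaled reads in -HOT cells of KO1 and KO2. Regions under 50 in -HOT cells entered this count only through +HOT cells. The counts are therefore partly built in, and the part of this selection was not tested. The 3 were Zfp639 with 26 and 31.8 in +HOT cells, against 52 and 76 in -HOT cells (chr3:32407868-32409029, -1.10, adjusted p 0.0032, limma), Zfp207 with 54 and 79.1, against 109 and 124 (chr11:80198924-80200868, -0.82, adjusted p 0.025), and Zfp384 with 58 and 97.3, against 68 and 119 (-0.26, not passed). The falls at Zfp639 and Zfp207 passed in edgeR (adjusted p 0.00056 and 0.0012) but not in DESeq2 (0.145 and 0.159) or in limma without a read minimum (0.084 and 0.172) or without the block (0.099 and 0.242). All 3 lay across an edge of the H3K4me3 region, and the Zfp639 region touched 2 of them.

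The position of the H3K4me1 region went with its change. Of 171 regions that lay wholly inside a Zfp H3K4me3 region 161 rose and 1 fell, with medians of 1.67 and 1.75. Of 197 across an edge 124 rose and 9 fell (0.88 and 0.94), and of 26 that spanned the H3K4me3 region 17 rose (0.87 and 0.82). Thus 94.2% of the inside regions, 62.9% of those across an edge and 65.4% of those that spanned it rose over Zfp promoters, against 90.5%, 53.3% and 55.9% over other promoters. These differences were not tested. By distance, 120 of 138 regions within 250 bp of the H3K4me3 centre rose, and 26 of 56 beyond 1000 bp. Inside regions had few H3K4me1 reads in -HOT cells, with a median of 13 and 16 scaled reads, against 37 and 47 across an edge. The read minimum applied to the higher condition, so regions below it in -HOT cells entered the test only through +HOT cells. It was passed by 171 of 227 inside regions, 197 of 239 across an edge and 26 of 26 that spanned. The part of this selection in the shares that rose was not tested.

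**Figure D5:**
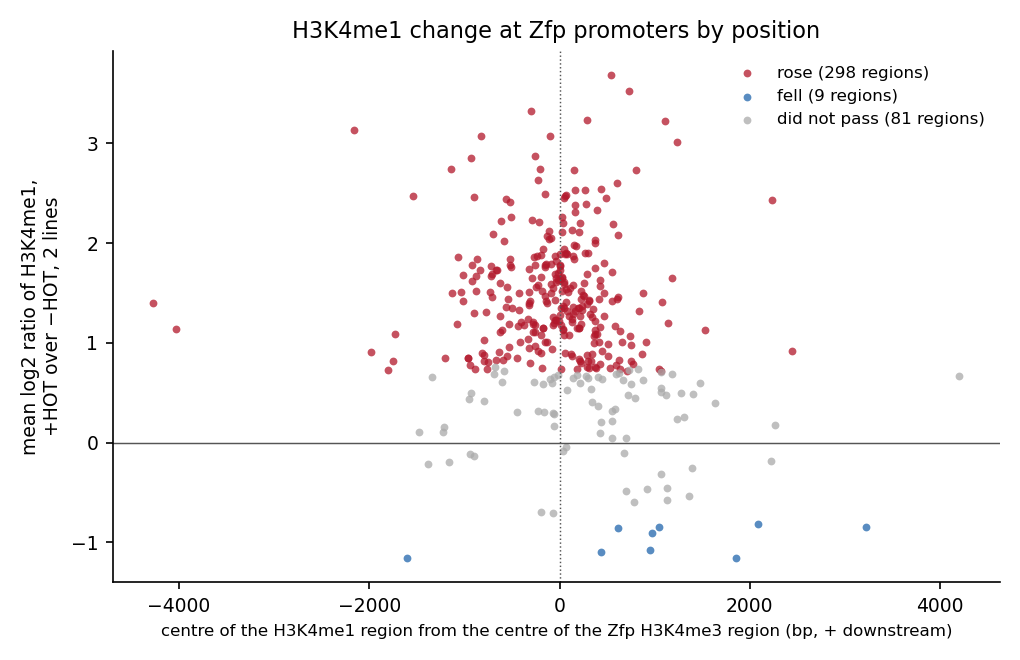
Mean log2 ratio of H3K4me1, +HOT over -HOT, over both lines against the distance of the H3K4me1 centre from the centre of the Zfp H3K4me3 region, positive downstream of it, for the 388 tested regions with a known strand. The 298 regions that rose (red) crowd around 0 bp, and 9 regions fell (blue).

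The 2 marks were then read together. Of 260 Zfp regions that fell in H3K4me3 and had an H3K4me1 region tested, 217 had at least 1 that rose (83.5%) and 7 had 1 that fell, and at other promoters this share was 77.2% of 8599. Of the 45 Zfp regions whose H3K4me3 loss did not pass in limma, 42 had an H3K4me1 region that rose (93.3%). The same share was not counted at other promoters whose loss did not pass. Most of these H3K4me3 losses passed with the other tools, since of all 47 not passed edgeR called 42 lower and DESeq2 44. Across 394 pairs the rank correlation of the 2 log2 ratios was 0.05 in KO1 and 0.18 in KO2, given as a description, since the pairs share their libraries. KRAB promoters had 145 of 174 H3K4me1 regions that rose (1.34 and 1.30), and C2H2 promoters without the pattern had 131 of 186 (1.14 and 1.13).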

How the data were processed

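ChIP-seq of H3K4me3 and H3K4me1 in the KO lines was used (8 of 20 libraries), and 8 WT and 4 input libraries were left out. The study's methods give BWA for the alignment to mm9, MACS2 for the peaks, Homer for their annotation and a scaling to the lowest coverage. Each deposited signal value is the number of reads in a region after the authors divided it by 1 factor per library, and where the factor was 1 the authors deposited the read counts themselves. Multiplied by 1.333 and 1.01 (H3K4me3, -HOT, KO1 and KO2), 1.1 (H3K4me1, +HOT, KO2) or 1, all values were whole numbers within 0.001. The distance of each region to its TSS, the gene name and the level class are the deposited annotation. The authors' log2 fold change columns, lists of lost and gained regions and motif enrichment tables hold their own comparisons and were not used. In the H3K4me1 table of KO1, 5576 regions of chromosome 1 have no whole-number coordinates and were left out.

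Members and gene lists were chosen with earlier results of these data known. A region entered the test when its higher condition exceeded 20 scaled reads in each line. limma 3.58.1 (R 4.3.3) was fitted to log2(value + 1) with a term for the line, and p-values were adjusted after Benjamini-Hochberg over all regions of a mark. The log2 ratios understate the change of low regions. The line was taken as a pair because +HOT and -HOT cells of a line are the same cells. After removal of the condition means, libraries of the same line correlated at 0.587 (H3K4me3) and 0.580 (H3K4me1) across regions. Whether further cultures stood behind a library is not given in the sources used here, so p-values cover no spread beyond that of 2 lines. For H3K4me3, limma gave all regions 1 standard error (0.391). Its p-value there follows the mean log2 ratio alone and does not measure how far the 2 lines differ at a region. For H3K4me1, the error of each region was drawn toward a value common to all regions. edgeR 4.0.16 and DESeq2 1.42.0 were run on the recovered reads as alternatives, beside other pseudocounts, read minimums, centring, no block and each line left out.

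Named regions were the 6 lowest and 6 highest mean log2 ratios of H3K4me3 where the higher condition reached 100 scaled reads in KO1 and in KO2, up to 6 highest and lowest of H3K4me1 with at least 50 and 1 sign, the 3 strongest and 3 widest, Zfp genes of listed roles, and the lowest, median and highest of each other list. The extremes of clusters, regions of 1 gene that differ, and Trim28 and Setdb1 were picked after their values were seen. TSS and exons were taken from GENCODE vM1 and sequences from the NCBIM37 (mm9) genome. A TSS within 100 bp of the deposited distance was found for 311 regions, and regions that share a promoter window were counted once in the motif shares. KRAB and C2H2 patterns were searched in the GENCODE coding sequences, as no table of proteins was used here, and the KRAB pattern was found in 175 of 371 Zfp genes and in 79 of 22366 others. The long motif was added after its first letters had been counted. Python 3.11.15 was used for the rest.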

Additional observations from a re-analysis of the deposited data

How the results depend on the processing

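For H3K4me3 at Zfp regions, 312 fell as reported, against 0 without the line as a block (no replicate block, 1 at an unadjusted p under 0.05) and 34 with each line centred, where 35 rose in place of 0 and the median of mean log2 ratios was 0.14 instead of -1.2. The other counts ran from 208 (no read minimum) to 353 (DESeq2), and with 1 line left out the median was -1.39 and -1.0. For H3K4me1, 302 rose as reported, against 160 without the block (6.37% of all regions), 165 without a read minimum (4.25%) and 200 with DESeq2 (9.21%). The 10 falls became 0 without the block and with DESeq2, 1 without a read minimum, 2 at more than 50 reads, and 4 with a limma trend, with edgeR and with at least 50% of the H3K4me1 region inside. The median of 1.2 moved to 1.12 with a pseudocount of 5, 1.13 without a read minimum, 1.01 after centring and 1.26 with at least 50% inside, and lay at 1.18 and 1.24 with 1 line left out. Regions lost in both lines fell in number from 326 to 174 at a log2 ratio beyond 1. The median difference between KRAB and other C2H2 regions, -0.05, was -0.13 for clustered against other regions, 0.14 in medium regions and -0.01 and -0.09 with 1 line left out. After centring, the ratios of Zfp638 (0.94), Zfp445 (0.89), Zfp971 (0.89), Zfp36l2 (0.84), Zfp942 (0.79), Zfp106 (0.79), Zfp503 (0.49), Zfp36l1 (0.39) and Zfp608 (0.085) turned positive. The cause of these changes was not tested beyond the settings themselves. Only 2 lines were used, and H3K4me3 reads in regions were fewer in +HOT cells, so depth and a general loss of the mark cannot be told apart beyond the authors' scaling.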
